A study of Homo sapiens with 8 samples.

Results

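The 45 genes described here encode autophagy machinery and lysosomal proteins, together with the transcription factors that are known to control both. They were taken by symbol from a table of 20263 genes, and comprised 23 genes of the autophagy machinery, 19 lysosomal genes and 3 transcription factors. All 45 were in the table and 44 were tested, since MITF was below the level required. RNA was sequenced from PANC-1, an established human pancreatic ductal carcinoma line, after 24 h with 10 μM Eupalinolide B (EB) or with dimethyl sulfoxide (DMSO), the vehicle. EB is a sesquiterpene lactone from the plant Eupatorium lindleyanum. Each group held 4 libraries of this unmodified line, so all 8 come from 1 tumour line and 1 time of treatment. Levels are given as TPM, a length-corrected measure of how much of a library each gene makes up.

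In autophagy, a double membrane closes around cytoplasm, and the autophagosome that results fuses with a lysosome, where acid hydrolases digest the content. The ULK kinases and the lipid kinase complex around Beclin 1 start the membrane, a pair of ubiquitin-like conjugation systems attaches LC3 and GABARAP proteins to it, and cargo receptors tie ubiquitinated material to those proteins. The transcription factors TFEB, TFE3 and MITF bind E-box sequences, among them the CLEAR sequence, in the promoters of many lysosomal and autophagy genes. mRNA levels do not measure autophagic flux.

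Of the 44 genes tested, 10 were higher with EB and 7 were lower at an adjusted p under 0.05 (limma on log2(TPM + 1), Benjamini-Hochberg adjustment over the 11725 genes tested). These were 22.7% and 15.9% of the members, beside 15.2% of all genes tested that were higher and 25.1% that were lower. In 11 members every EB library was above every DMSO library, and in 6 every EB library was below, against 16.6% and 20.3% of all genes tested. The members rising most were CD68 (2.64 on the log2 scale), CTSL (1.41), TFEB (0.85) and GLA (0.72), and those falling most were ULK2 (-1.04), OPTN (-0.96), BECN1 (-0.67) and ULK1 (-0.65). With an unadjusted p under 0.05 and a log2 fold change beyond 1.5, the thresholds used in the study, CD68 was the 1 member higher. No member was lower. Of all genes tested, 63 (0.537%) were higher and 181 (1.54%) were lower at these thresholds. These counts differ from those the study reported. All fold changes are differences of log2(TPM + 1), EB minus DMSO, and understate the change of low genes. The median over all genes tested was -0.11.

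**Figure D1:**
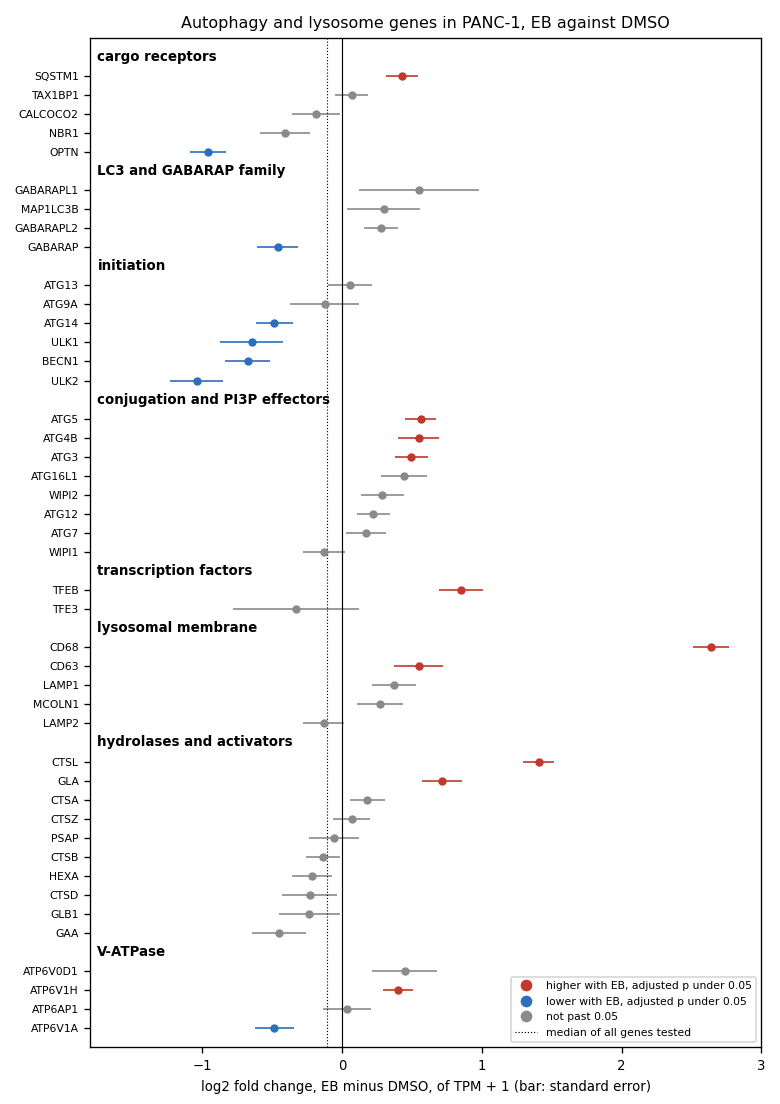
Log2 fold change (EB minus DMSO, on log2(TPM + 1)) of the 44 members tested, grouped by role, with the standard error as the bar. Red and blue points passed an adjusted p of 0.05, and the dotted line marks the median of all genes tested, -0.11. Initiation genes lie mostly to the left and conjugation genes mostly to the right.

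The 13 mitochondrially encoded genes took 17.0% to 39.0% of the TPM in the DMSO libraries and 11.6% to 20.3% in the EB libraries. DMSO replicate 4 had the 39.0%, so its nuclear genes shared a smaller remainder. Among 11685 nuclear genes longer transcripts had lower fold changes (Spearman's correlation -0.48, a description over genes of the same 8 libraries). Pearson's r of log2(TPM + 1) was 0.988 to 0.994 between DMSO libraries, 0.991 to 0.994 between EB libraries and 0.972 to 0.983 across the groups. The number of reads behind a TPM is unknown. Of the duct and epithelial markers, KRT8, KRT18 and KRT19 were expressed in every library and rose with EB, and KRT7, EPCAM and CDH1 were at most 0.458 TPM. The fibroblast markers DCN and LUM were listed at 0 in every library, and COL1A2 fell from 79.4 ± 12.2 to 43.9 ± 5.53 TPM (SD, n = 4). COL1A1 fell from 1.87 ± 0.236 to 0.896 ± 0.105 TPM (SD, n = 4). PDGFRB was at most 0.169 TPM, with every EB library above every DMSO library. Marker genes of acinar and endocrine cells summed to at most 0.0329 TPM. The part of these shifts in the results below was not tested, apart from the recalculations given beside them. In a bulk sample of this 1 line, fewer cells expressing a gene and less of its RNA per cell cannot be told apart.

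The CLEAR core TCACGTGA was searched on both strands in the 250 bases before the RefSeq start sites (GRCh38.p14). Windows were found for 39 of the 45 members. The core stood in 5 of 13 lysosomal members and in 0 of 23 members of the autophagy machinery, beside 1.04% of all 27305 genes. The sites are shown because TFEB and its relatives are known to bind this core, with the core in capitals and each line read 5′ to 3′ on the gene's strand.
LAMP1, chr13:113297199-113297228, plus strand: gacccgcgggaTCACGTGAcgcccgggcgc
ATP6V0D1, chr16:67481199-67481228, minus strand: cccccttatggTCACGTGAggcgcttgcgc
GAA, chr17:80101493-80101522, plus strand: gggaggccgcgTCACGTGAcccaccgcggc
GAA, chr17:80101538-80101567, plus strand: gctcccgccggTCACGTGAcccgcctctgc
MCOLN1, chr19:7522571-7522600, plus strand: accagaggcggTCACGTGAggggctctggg
MCOLN1, chr19:7522598-7522627, plus strand: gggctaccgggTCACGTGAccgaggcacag
CTSA, chr20:45891298-45891327, plus strand: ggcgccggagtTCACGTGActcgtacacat
None of these 5 genes passed the test in the values as deposited, where their log2 fold changes were 0.37 for LAMP1, 0.45 for ATP6V0D1, -0.45 for GAA, 0.27 for MCOLN1 and 0.18 for CTSA. With median-ratio scaling all 5 passed, LAMP1 (0.50), ATP6V0D1 (0.58), MCOLN1 (0.40) and CTSA (0.31) as higher and GAA (-0.32) as lower. Under that scaling 3146 of all 11725 genes tested were higher and 3001 were lower. Of 18 alternatives to the values as deposited, GAA passed in 6, LAMP1, ATP6V0D1 and MCOLN1 in 2 each, and CTSA in 1.

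The CD68 and CTSL promoters, those of the largest rises, held neither this core nor the wider E-box CACGTG within it in this window. The CD68 window held the AP-1 letters TGANTCA, which are in the windows of 8.06% of all genes and of 3 members (7.69%), the others being CD63 and TFE3. It also held TGACNNNGC, the core of the antioxidant response element that NRF2 is known to bind, as did CTSL, read there on the opposite strand. Each match is in capitals.
CD68, chr17:7579527-7579556, plus strand, AP-1: gctgaggccccTGAGTCAggctgtgggtgg
CD68, chr17:7579437-7579466, plus strand, antioxidant response element: gtgacactgtTGACTTTGCcctgatgaagc
CTSL, chr9:87726086-87726115, plus strand, antioxidant response element: ggttttagaaGCAGAGTCAggcgaagctgg
The core TGACNNNGC stood in 10 of 39 members (25.6%), namely 8 of 13 lysosomal genes and 2 of 23 of the machinery, beside 13.2% of all genes. Apart from CD68 and CTSL, no member with this core passed the test in the values as deposited. Their log2 fold changes ran from -0.45 (GAA) to 0.45 (ATP6V0D1). The E-box CACGTG stood in 9 members (23.1%), namely 7 lysosomal genes and 2 of the machinery, beside 7.73% of all genes, and the CLEAR core contains it. In LAMP1 and GAA a match to TGACNNNGC overlaps an E-box. The letters TGATGNAA, from the composite site of ATF4 and CHOP, were in none of the 39, beside 3.89% of all genes. A match is a run of letters in a reference window, and binding was not measured.

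Among the transcription factors, TFEB rose from a low level. TFEB (ENSG00000112561, chromosome 6, 41683978 to 41736259, minus strand, hg38) had a TPM of 3.15, 3.46, 2.91 and 2.29 in DMSO replicates 1 to 4. It had 7.25, 7.20, 4.98 and 5.26 in EB replicates 1 to 4. Every EB library was above every DMSO library, and the mean went from 2.96 ± 0.496 to 6.17 ± 1.22 TPM (SD, n = 4; log2 fold change 0.85, standard error 0.16, limma adjusted p = 0.00294). The exact two-sided permutation test over the 70 assignments gave p = 0.0286, the smallest it can give.

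TFE3, a close relative of TFEB, was far more abundant and scattered widely. Its TPM was 122, 58.4, 58.8 and 76.1 with DMSO and 115, 40.3, 102 and 26.4 with EB. The groups overlapped in part: DMSO replicate 1 was above every EB library, EB replicates 2 and 4 were below every DMSO library, and EB replicates 1 and 3 lay within the DMSO range (log2 fold change -0.33, standard error 0.45, limma adjusted p = 0.582). MITF, the third relative, was near the limit of the data at 0.370, 0.144, 0.395 and 0.163 TPM with DMSO and 0.423, 0.418, 0.389 and 0.245 with EB, and was not tested.

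Of the 6 initiation genes, 4 were lower with EB (66.7%, beside 25.1% of all genes tested) and 0 were higher, with a median log2 fold change of -0.56. Their transcripts were long, with a median of 4480.5 nucleotides against 3216.5 for all genes tested, and the calls of ULK1 and ATG14 ended once the length and GC trend was removed (-0.38 and -0.27). ULK2 and ULK1 encode the related kinases that receive the starvation signal and launch autophagosome formation. ULK2 had 20.8, 21.5, 20.2 and 13.2 TPM with DMSO and 9.93, 10.1, 8.18 and 6.43 with EB. Every EB library lay below every DMSO library, at 0.458 times the DMSO mean (log2 fold change -1.04, standard error 0.19, limma adjusted p = 0.00278).

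ULK1 had 30.9, 32.4, 31.4 and 16.3 TPM with DMSO, and 17.8, 20.6, 15.6 and 13.8 with EB. DMSO replicate 4 fell among the EB libraries, so the groups overlapped, whereas the other DMSO libraries were all above EB (log2 fold change -0.65, standard error 0.22, limma adjusted p = 0.0437). This call was narrow. The adjusted p was 0.0731 to 0.114 when DMSO replicate 1, 2 or 3 or EB replicate 1, 3 or 4 was left out, with log2 fold changes of -0.67 to -0.56.

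BECN1 encodes Beclin 1, the scaffold of the lipid kinase complex that makes the phosphatidylinositol 3-phosphate (PI3P) of the growing membrane. It had 52.7, 60.3, 52.8 and 55.9 TPM with DMSO and 32.2, 38.3, 43.1 and 26.0 with EB. No library overlapped, and DMSO replicate 4 was level with the other controls (log2 fold change -0.67, standard error 0.16, limma adjusted p = 0.00946). BECN1 is overlapped over 8966 bases by PSME3 on the opposite strand, and whether reads were counted by strand is not stated.

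ATG14, which directs the Beclin 1 complex to autophagosome formation, moved the same way, from 11.5 to 16.2 TPM with DMSO to 9.89 to 10.5 with EB (log2 fold change -0.48, limma adjusted p = 0.0182). Without DMSO replicate 1, 2 or 3 its adjusted p was 0.0509 to 0.0579. ATG13, the regulatory partner of the ULK kinases, and ATG9A, the lipid scramblase on the vesicles that seed the membrane, had log2 fold changes of 0.06 and -0.12 and did not pass the test.

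Of the 8 genes of the conjugation systems and PI3P effectors, 3 were higher (37.5%, beside 15.2% of all genes tested) and 0 were lower, with a median log2 fold change of 0.37. ATG5, which joins ATG12 and ATG16L1 in the complex that places LC3 on membranes, had 9.07, 9.44, 10.4 and 9.95 TPM with DMSO. With EB it had 15.6, 15.004, 15.2 and 13.4 TPM. The groups were tight and apart (log2 fold change 0.56, standard error 0.11, limma adjusted p = 0.00402). PRDM1 overlaps ATG5 on the opposite strand.

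ATG4B, the protease that trims LC3 before conjugation and releases it afterwards, had 83.2, 77.0, 81.1 and 56.0 TPM with DMSO and 107, 106, 117 and 103 with EB. DMSO replicate 4 was the lowest of all 8, and the EB libraries were above each of the controls (log2 fold change 0.55, standard error 0.15, limma adjusted p = 0.0154). ATG3, the enzyme that hands LC3 to its lipid, ranged from 41.6 to 50.5 TPM with DMSO and from 59.0 to 68.5 with EB (log2 fold change 0.50, limma adjusted p = 0.00997). It did not pass with nuclear genes only (0.31, limma adjusted p = 0.0983) or with the length and GC trend removed (0.18, limma adjusted p = 0.280). The other 5 genes of this group did not pass. ATG16L1 was nearest to the threshold (log2 fold change 0.45, limma adjusted p = 0.0544), and without EB replicate 4 it passed at 0.55 (limma adjusted p = 0.0312). ATG12, ATG7, WIPI2 and WIPI1 had log2 fold changes of 0.22, 0.17, 0.29 and -0.13. ATG7 activates LC3 and ATG12 for conjugation, and the WIPI proteins bind PI3P on the growing membrane.

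Of the 4 LC3 and GABARAP genes measured, 1 was lower (25.0%, beside 25.1% of all genes tested) and 0 were higher (beside 15.2%). MAP1LC3B, which encodes the LC3B protein widely used to follow autophagosomes, had 107, 60.4, 51.1 and 40.0 TPM with DMSO and 82.5, 74.8, 76.7 and 65.2 with EB. DMSO replicate 1 was the highest of all 8 libraries, and the other controls lay below every EB library (log2 fold change 0.30, standard error 0.26, limma adjusted p = 0.382). Without DMSO replicate 1 the log2 fold change was 0.57 (limma adjusted p = 0.0314). The near-identical gene MAP1LC3B2 was listed at 0.757 to 1.93 TPM, and how reads shared by both were assigned is not stated.

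GABARAP, the founding member of its branch, ranged from 77.5 to 103 TPM with DMSO and from 54.8 to 75.8 with EB (log2 fold change -0.46, limma adjusted p = 0.0303). Its ranges did not overlap, but its adjusted p was 0.0507 to 0.0885 without any 1 of replicates 1 to 3 of either group. A protein-coding readthrough transcript shares its strand. GABARAPL2 was higher in all 4 EB libraries without passing (log2 fold change 0.28, limma adjusted p = 0.0900). GABARAPL1 had 22.0, 17.4 and 17.6 TPM in EB replicates 1 to 3 but 3.95 in EB replicate 4, below its DMSO range of 6.57 to 11.1. Its log2 fold change was 0.55 (limma adjusted p = 0.326), and 1.06 without EB replicate 4 (limma adjusted p = 0.00581).

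The cargo receptors split. OPTN encodes optineurin, a receptor for damaged mitochondria and bacteria, and had 114, 116, 104 and 85.2 TPM with DMSO. It had 50.6, 56.3, 51.2 and 53.8 TPM with EB. All EB libraries lay well below the lowest control, at 0.506 times the DMSO mean (log2 fold change -0.96, standard error 0.13, limma adjusted p = 0.000712). SQSTM1 encodes p62, a receptor for ubiquitinated aggregates that autophagy itself degrades and that NRF2 is known to induce. It was the most abundant of the machinery genes, with 505 to 587 TPM with DMSO and 707 to 807 with EB (log2 fold change 0.43, limma adjusted p = 0.0145). With quantile normalization it did not pass (0.16, limma adjusted p = 0.151).

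NBR1, a receptor related to p62, had 41.9, 42.7, 42.9 and 27.1 TPM with DMSO and 26.6, 34.8, 26.0 and 27.0 with EB. DMSO replicate 4 sat among the EB libraries (log2 fold change -0.41, limma adjusted p = 0.0895), and without it the log2 fold change was -0.57 (limma adjusted p = 0.00503). TAX1BP1 and CALCOCO2, the other two receptors, had log2 fold changes of 0.07 and -0.19 and did not pass.

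**Figure D2:**
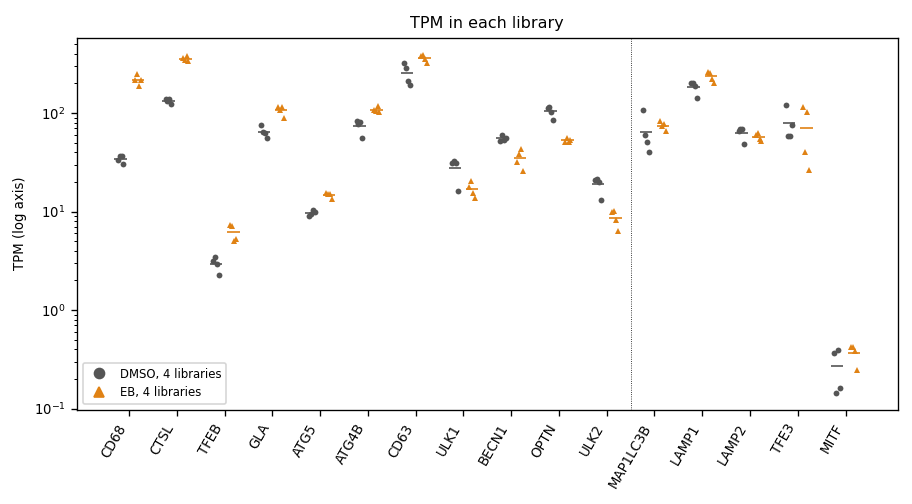
TPM (log axis) in each of the 4 DMSO (grey circles) and 4 EB libraries (orange triangles), with a line at each group mean. Genes left of the dotted line passed an adjusted p of 0.05 with a log2 fold change of at least 0.5 in size, and the 5 to its right are shown whatever their result. CD68 and CTSL show the widest gaps, and DMSO replicate 4 is the low grey point of ULK1, ULK2 and ATG4B.

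Of the 19 lysosomal genes, 5 were higher and 1 was lower with EB, whereas of the 23 machinery genes 4 were higher and 6 were lower. The median log2 fold change was 0.07 in each class. The shares higher and lower were 26.3% and 5.26% for the lysosome and 17.4% and 26.1% for the machinery. Those of the machinery were near the 15.2% and 25.1% of all genes tested. The lysosomal transcripts were also shorter, with a median of 2084 nucleotides against 3423 for the machinery and 3216.5 for all genes tested. Whether the classes differ was not tested.

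CD68 changed most of all members. It encodes a heavily glycosylated protein of the lysosomal membrane, and antibodies to it are commonly used to stain macrophages. CD68 (ENSG00000129226, chromosome 17, 7579491 to 7582111, plus strand, hg38) had 33.1, 36.3, 36.5 and 30.1 TPM with DMSO and 215, 249, 188 and 219 with EB. The lowest EB library was far above the highest control, and the mean went from 34.0 ± 3.01 to 218 ± 24.7 TPM (SD, n = 4), a ratio of 6.40. The log2 fold change was 2.64 (standard error 0.13, limma adjusted p = 8.13e-06).

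Other macrophage markers did not accompany it. Of the 10 fixed for this purpose, PTPRC, CD163, AIF1, TYROBP, FCGR3A and LYZ were listed at 0 in all 8 libraries. CD14 was at 0.299 to 1.37 TPM, ITGAM at most 0.601, and CSF1R and MRC1 at most 0.102. The 10 together summed to 0.846 to 1.98 TPM with DMSO and 0.652 to 1.61 with EB. A long noncoding RNA gene on the same strand overlaps 2534 bases of CD68, and their reads cannot be separated in these values.

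The other membrane proteins moved less. CD63, a tetraspanin of late endosomes, lysosomes and exosomes, had 320.2, 285, 214 and 191 TPM with DMSO and 382, 394, 356 and 319.6 with EB. The highest control slightly exceeded the lowest EB library (log2 fold change 0.55, standard error 0.18, limma adjusted p = 0.0328). Without DMSO replicate 3 or EB replicate 1, 2 or 3 its adjusted p was 0.0695 to 0.0909.

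LAMP1 and LAMP2 are the major glycoproteins of the lysosomal membrane, and neither passed the test. LAMP1 had 204, 200.2, 188 and 141 TPM with DMSO and 262, 255, 224 and 204 with EB, and the ranges met at their ends (log2 fold change 0.37, standard error 0.15, limma adjusted p = 0.0795). LAMP2 had 65.2, 68.7, 69.3 and 49.0 TPM with DMSO and 60.4, 62.2, 54.1 and 51.7 with EB, with full overlap (log2 fold change -0.13, standard error 0.14, limma adjusted p = 0.494). MCOLN1, the lysosomal calcium channel, had a log2 fold change of 0.27 (limma adjusted p = 0.211).

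Of the 10 hydrolases and their activators, 2 were higher (20.0%, beside 15.2% of all genes tested) and 0 were lower (beside 25.1%). Their median log2 fold change was -0.10. CTSL encodes cathepsin L, a cysteine protease. CTSL (ENSG00000135047, chromosome 9, 87724051 to 87731469, plus strand, hg38) had 140.4, 134, 139.6 and 123 TPM with DMSO and 366, 347, 376 and 342 with EB. Both groups were tight and far apart, at 2.66 times the DMSO mean (log2 fold change 1.41, standard error 0.11, limma adjusted p = 4.93e-05).

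GLA encodes alpha-galactosidase A, which removes galactose from glycolipids and is deficient in Fabry disease. It had 75.4, 64.3, 62.8 and 56.2 TPM with DMSO and 116, 109, 115 and 88.2 with EB. All EB libraries exceeded all controls (log2 fold change 0.72, standard error 0.14, limma adjusted p = 0.00386). RPL36A, a ribosomal protein gene on the opposite strand, overlaps GLA over 2883 bases.

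None of the other cathepsins passed the test. CTSB (cysteine protease), CTSD (aspartic protease), CTSZ and CTSA (carboxypeptidases) had log2 fold changes of -0.14, -0.23, 0.07 and 0.18, with limma adjusted p of 0.276 to 0.704. CTSD passed as lower without DMSO replicate 4 (log2 fold change -0.42, limma adjusted p = 0.0242). PSAP, the precursor of the saposins that help lysosomal enzymes reach lipids, was the most abundant member at 624 to 1026 TPM with DMSO and 676 to 937 with EB (log2 fold change -0.06).

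HEXA and GLB1, which encode a subunit of beta-hexosaminidase and beta-galactosidase, had log2 fold changes of -0.22 and -0.23 and did not pass. GAA, the acid alpha-glucosidase that digests glycogen, had 197, 198, 187 and 114 TPM with DMSO and 130.0, 143, 116 and 109 with EB. DMSO replicate 4 lay within the EB range (log2 fold change -0.45, limma adjusted p = 0.0883), and without it the log2 fold change was -0.64 (limma adjusted p = 0.00225).

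The V-ATPase is the proton pump that acidifies the lysosome. Of its 4 members, 1 was higher and 1 lower (25.0% each, beside 15.2% and 25.1% of all genes tested). ATP6V1H, a regulatory subunit of the cytosolic part, ranged from 23.9 to 26.7 TPM with DMSO and from 32.2 to 36.1 with EB (log2 fold change 0.40, limma adjusted p = 0.0157). ATP6V1A, the catalytic subunit of the same part, ranged from 12.5 to 17.5 TPM with DMSO and from 9.85 to 12.2 with EB (log2 fold change -0.48, limma adjusted p = 0.0204). Both calls depended on individual libraries. That of ATP6V1H had an adjusted p of 0.0517 without DMSO replicate 3 and 0.0520 without EB replicate 1. That of ATP6V1A had 0.0531 to 0.0633 without DMSO replicate 1, 2 or 3 or EB replicate 3 or 4. ATP6V0D1 of the membrane part and the accessory subunit ATP6AP1 had log2 fold changes of 0.45 and 0.03 and did not pass.

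Given the uneven mitochondrial share and the length trend, every call was recalculated. Removing, within each library, the dependence on length and GC content kept 10 of the 17 calls, among them CD68 (2.35), CTSL (1.11), ULK2 (-0.63) and GABARAP (-0.84). It ended 7, with log2 fold changes of 0.34 for GLA, 0.10 for CD63, 0.18 for ATG3, 0.22 for ATP6V1H, -0.38 for ULK1, -0.27 for ATG14 and -0.29 for ATP6V1A. Under this setting 2 of the 19 lysosomal genes were higher and 0 were lower, beside 1227 higher and 2352 lower of all 11685 genes tested.

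The balance of directions depended on the scaling. Rescaling to nuclear genes moved the median of all genes from -0.11 to -0.28 and gave 8 members higher and 13 lower, so that 38.1% of the calls were higher, against 58.8% in the values as deposited. Over all genes 22.7% of the calls were then higher, against 37.7% as deposited. Median-ratio scaling moved the median to 0.01 and gave 18 higher and 8 lower, or 69.2%, beside 51.2% over all genes. Under these scalings the members' share moved with that of the whole table and stayed above it. Quantile normalization gave 12 members higher and 12 lower, beside 2782 and 2764 of all genes tested. There the members' share fell while that of the whole table rose, and the members had no excess of higher calls. Of the 17 calls, 8 passed under every alternative run in which the gene was tested: CD68, CTSL, TFEB, ATG4B and ATG5 as higher, and OPTN, ULK2 and BECN1 as lower. No called member changed sign under any of them.

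**Figure D3:**
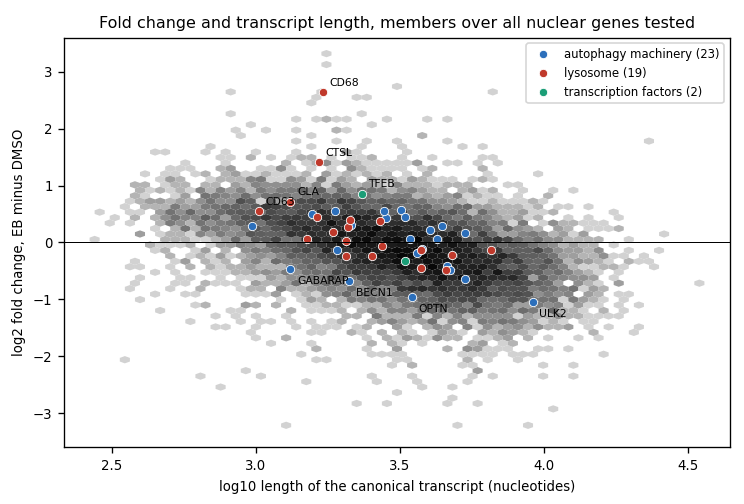
Log2 fold change (EB minus DMSO) against log10 transcript length for 11685 nuclear genes (grey hexagons, darker where more genes lie) with the 44 members tested in colour by class. Short transcripts lie higher than long ones (Spearman's correlation -0.48). CD68 and CTSL lie above most genes of their lengths, while ULK2 and CD63 lie nearer to them. Some genes of similar length, such as CEBPB (1.54), lie above CTSL (1.41).

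**Figure D4:**
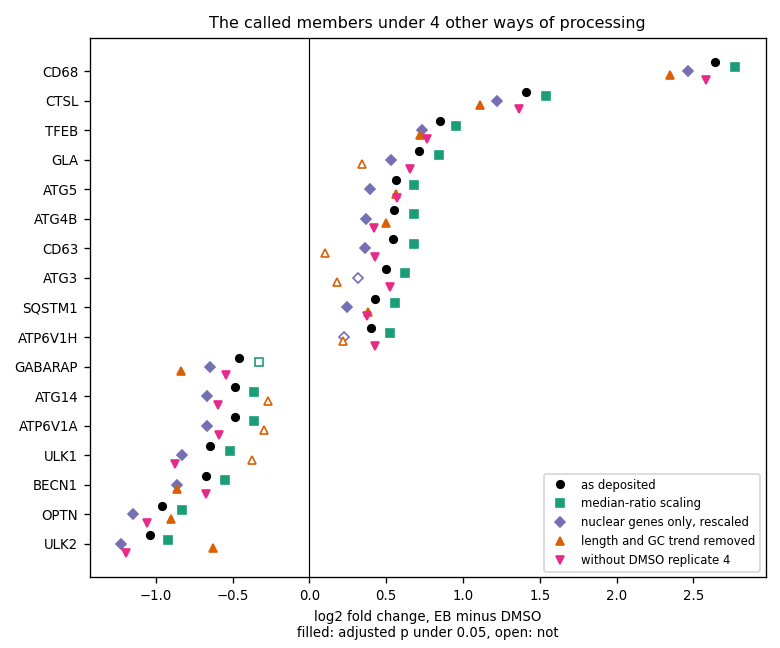
Log2 fold change (EB minus DMSO) of the 17 called members as deposited and under 4 other ways of processing, filled where the adjusted p was under 0.05 and open where not. CD68, CTSL and TFEB stay to the right and ULK2, OPTN and BECN1 to the left in every setting drawn. GLA, CD63, ATG3 and ULK1 are open once the length and GC trend is removed.

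The wider pathway held 156 further genes, of which 143 were tested, with a median log2 fold change of -0.02. Of these 143, 15 were higher (10.5%) and 28 were lower (19.6%), both below the 15.2% and 25.1% of all genes tested. Of 28 other genes of the autophagy machinery, 5 were higher (17.9%) and 4 lower (14.3%). The largest changes were in FYCO1 (-0.94), which links autophagosomes to kinesin, RB1CC1 (-0.88) and ATG101 (0.79), partners of the ULK kinases, and ATG2B (-0.79), a lipid transfer protein. FYCO1 (-0.56, limma adjusted p = 0.0669) and ATG2B (-0.35, limma adjusted p = 0.0541) did not pass once the length and GC trend was removed. ATG101 thus rose and RB1CC1 fell within the complex in which ULK1 and ULK2 fell. Of 13 other selective receptors, 0 were higher and 4 were lower (30.8%, beside 25.1% of all genes tested). The 4 were WDFY3 (-1.06) for aggregates, RETREG1 (-0.85) and CALCOCO1 (-0.73) for endoplasmic reticulum, and NCOA4 (-0.42) for ferritin. NCOA4 did not pass with that trend removed (-0.36, limma adjusted p = 0.0804).

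Among 25 genes that control mTORC1 or TFEB, 2 were higher (8.0%) and 5 lower (20.0%), beside 15.2% and 25.1% of all genes tested. The leading ones were PRKAA1 (-1.11), a catalytic subunit of the energy sensor AMPK that activates ULK1, FNIP1 (-0.88), a partner of folliculin, MTOR (-0.81) and TSC2 (-0.76). PRKAA1 fell from 21.5 ± 2.62 to 9.42 ± 0.711 TPM (SD, n = 4; limma adjusted p = 0.000315), and it remained lower with the length and GC trend removed (-0.86). MTOR did not pass then (-0.42, limma adjusted p = 0.231).

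Of 36 other hydrolases and activators, 3 were higher (8.33%) and 9 were lower (25.0%, near the 25.1% of all genes tested), with the largest changes in GALC (-1.10), CTSO (-1.03), NAGLU (-0.999) and IDUA (-0.98), which digest galactolipids, proteins and, for the last pair, heparan sulfate. Of 24 other membrane and sorting genes, 1 was higher (4.17%) and 4 were lower (16.7%), beside 15.2% and 25.1% of all genes tested. The largest changes were in SORT1 (-1.46) and GNPTAB (-1.13), which serve delivery of hydrolases to the lysosome. NAGPA (0.65), the enzyme that uncovers the mannose 6-phosphate tag, and HGSNAT (-0.56) followed. Of 17 other V-ATPase genes, 4 were higher (23.5%) and 2 lower (11.8%), beside 15.2% and 25.1% of all genes tested. Leading them were the subunit genes ATP6V0E2 (-1.16), ATP6V1B1 (-0.80), ATP6V1D (0.72) and ATP6V0B (0.68). ATP6V1D and ATP6V0B, with short transcripts, did not pass once the length and GC trend was removed (0.41 and 0.24), nor did NAGPA (0.49, limma adjusted p = 0.0765) and HGSNAT (-0.31, limma adjusted p = 0.119).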

How the data were processed

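RNA of 8 PANC-1 cultures was sequenced from libraries made with an mRNA kit. The authors deposited TPM, computed within each library. The study's methods describe trimming, mapping and normalization in CLC Genomics Workbench, mention HISAT2 and StringTie besides, and give the genome as GrCM38 in one place and hg38 in another. Of 20263 identifiers, 20148 matched GENCODE release 44 (hg38), 115 did not, and 0 were mouse identifiers. The columns are headed C and H with a number, and C was read as DMSO and H as EB, the remaining group. The methods speak of 4 biological replicates and also of triplicates. Depth is unknown from TPM, whose sum is fixed, so no counting interval is given. Transcript lengths are those of GENCODE.

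The deposited TPM were taken to log2 after adding 1. A gene was tested if 4 or more libraries had a TPM of 1 or more. The test was limma 3.58.1 in R 4.3.3 (lmFit, then eBayes with neither trend nor block), with Benjamini-Hochberg adjustment. This step was tested on simulated data, drawn independently for each gene. They held no mitochondrial or length shift, so that trial does not show how the fit handles either. Single genes were also tested by an exact two-sided permutation test over 70 assignments. As alternatives, 0.1 was added in place of 1, the filter was dropped or raised to 5 TPM, and values were scaled by median ratios, by quantiles or to nuclear genes alone. Further ones were an intensity trend, a block for the replicate number, removal of the length and GC trend (natural splines with 5 degrees of freedom), leaving out each library, and other call rules. Nuclear genes alone without DMSO replicate 4 was added after seeing the data. Members, lists and motifs were chosen with earlier results of these data known. Members at an adjusted p under 0.05 and a log2 fold change of at least 0.5 in size, and MAP1LC3B, TFEB, TFE3, MITF, LAMP1 and LAMP2, are given library by library. Of each wider list the 4 largest changes at an adjusted p under 0.05 are named. Library values of NBR1, GAA and GABARAPL1 were added after they were seen. Promoters came from RefSeq and were searched with Python 3.11.15, where ATP6V1A, ATP6V1H, CTSB, HEXA, LAMP2 and PSAP had no entry.

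Of the 45 members, 28 are overlapped by another gene, 24 of them on the opposite strand, and whether counting used strand is not given in the sources used here.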

Additional observations from a re-analysis of the deposited data

Results flagged for a closer look

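Among 90 sets of 4 libraries (45 members in each group), 9 held a library far from the other 3 by Dixon's criterion for the gap to the nearest value over the range, where chance gives about 1 in 20. In 8 of the 9 it was DMSO replicate 4, the library with 39.0% mitochondrial TPM, and its value was the lowest. Its TPM, with the range of the other 3 controls, was 505 for SQSTM1 (576 to 587), 27.1 for NBR1 (41.9 to 42.9), 16.3 for ULK1 (30.9 to 32.4) and 13.2 for ULK2 (20.2 to 21.5). It was 11.5 for ATG14 (15.5 to 16.2), 295 for CTSD (491 to 504), 247 for CTSZ (328 to 343) and 114 for GAA (187 to 198). The ninth was EB replicate 2, with 34.8 TPM for NBR1 against 26.0 to 27.0 in the other EB libraries.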

How the results depend on the processing

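The machinery genes higher (4) became 8 with median-ratio scaling, 2 with an adjusted p and a log2 fold change above 0.5, and 0 with an unadjusted p and 1.5. The machinery genes lower (6) became 0 under that last rule and 3 to 7 with 1 library left out. The lysosomal genes higher (5) became 9 with median-ratio scaling, 2 with the length and GC trend removed, 1 under the last rule and 3 to 5 with 1 library left out. The lysosomal gene lower (1) became 2 with median-ratio scaling, 5 with quantile normalization, 6 with nuclear genes only, 7 with nuclear genes only and without DMSO replicate 4, and 0 with the length and GC trend removed or under either fold rule, with 0 to 3 when 1 library was left out. Over all genes tested, 1785 were higher and 2944 lower as deposited. These became 3146 and 3001 with median-ratio scaling, and 2782 and 2764 with quantile normalization. They were 1451 and 4954 with nuclear genes only, and 1227 and 2352 with the length and GC trend removed. The median log2 fold change of the machinery was -0.11 with nuclear genes only, and that of the lysosome -0.12, or -0.13 without DMSO replicate 4 as well. The lysosomal median minus that of the machinery was -0.14 with quantile normalization. The cause of these shifts was not tested. The labels do not say whether libraries with the same replicate number were paired, and these values cannot decide it. Deviations of libraries with the same number correlated at 0.18, 0.05, -0.09 and 0.28, and 2 of 4 DMSO libraries correlated best with their own number. The mitochondrial share ranked the replicate numbers alike in both groups (1, 3, 2, 4 from lowest to highest). A block for the number gave 5 machinery genes higher, 6 lower, 7 lysosomal genes higher and 2 lower. Over all genes tested it gave 2231 higher and 3525 lower, against 1785 and 2944 without it. Of the genes with a CLEAR core, LAMP1, ATP6V0D1 and GAA passed under this block (limma adjusted p = 0.0270, 0.0468 and 0.0311). The depth behind each TPM is unknown, so the counting error of low genes such as TFEB and MITF cannot be given. The limma p-values set the group difference against the spread between 4 libraries a group, moderated over all genes tested.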
